A study of Homo sapiens with 32 samples.

Results

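RNA was sequenced from NTera2 cells, a human line derived from embryonal carcinoma, after 48 h with denosumab or with vehicle (D-PBS). The comparison takes in the 4 libraries titled with denosumab and the 4 titled with vehicle, 8 of the 32 libraries of a series that also gave RANKL and OPG to NTera2 cells and all 4 treatments to the seminoma-derived line TCam-2. Members were taken from the library titles and not from any measured value, and all genes of the table were compared. Denosumab library 1 and vehicle library 1 came from passage 27, and the other pairs came from passages 29, 30 and 31. Cells were grown in DMEM with fetal bovine serum, and the pellets came from 4 independent experiments per the labels. Each group was therefore 1 cell line in culture, with no second embryonal carcinoma line beside it. The treatment protocol lists RANKL a second time where denosumab would stand, so the identity of the agent rests on the library titles and treatment labels, and no dose is given here.

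Denosumab is a monoclonal antibody that binds RANKL, the product of TNFSF11, and keeps it from its receptor RANK, the product of TNFRSF11A. OPG, the product of TNFRSF11B, is the soluble decoy receptor of the same ligand. RANK recruits TRAF adaptors and activates NF-kB and MAP kinases, and in bone this signal makes macrophage precursors into osteoclasts. Embryonal carcinoma cells are the malignant counterpart of pluripotent embryonic cells, and they keep the pluripotency factors POU5F1, SOX2 and NANOG.

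The denosumab libraries held between 11385500 and 14188674 counts over genes, and the vehicle libraries between 11847394 and 17110838. Genes with at least 1 count numbered 21729 in denosumab library 1, between 25070 and 25668 in the other 3 denosumab libraries, and between 25031 and 26645 in the vehicle libraries. RNA integrity numbers in the labels ran from 8.9 to 9.1 with denosumab and from 9.1 to 9.2 with vehicle, where library 1 has none, and the part of depth and RNA integrity in the differences was not tested. Levels below are CPM, counts divided by the effective library size, with TMM factors over the 16 NTera2 libraries. Of 21 core pluripotency factors 19 were expressed enough to be tested, and ZFP42 and DPPA5 had 2 and 0 counts over the 8 libraries. The markers POU5F1 and LIN28A stood at the levels of an expressed gene in every library. POU5F1 had 1389, 1450.4, 1397 and 1242 CPM in the denosumab libraries, against 1337, 1591, 1364 and 1344 CPM in the vehicle libraries. LIN28A, an RNA-binding pluripotency factor, had 2209, 2161, 2163 and 2162 CPM in the denosumab libraries, against 2068, 2104, 2225 and 2065 CPM in the vehicle libraries. Of 16 germ cell and seminoma markers 11 were expressed enough to be tested. KIT, the stem cell factor receptor, had 32.1, 21.001, 28.9 and 29.8 CPM in the denosumab libraries, against 29.1, 21.4, 24.002 and 24.4 CPM in the vehicle libraries. SOX17 and NANOS3, germ cell regulators, had 9 and 15 counts over the 8 libraries. Of 12 immune cell markers, PTPRC, CD3E, CD68, MS4A1 and NKG7 had no counts, LYZ had 5 and CD14 had 39 over the 8 libraries, and the other 5 could be tested. CD4 had 15.7, 14.9, 17.6 and 15.4 CPM in the denosumab libraries, against 14.6, 20.9, 15.7 and 18.96 CPM in the vehicle libraries. CD74, CD8A, HLA-DRA and ITGAM averaged under 1.3 CPM in either group.

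Denosumab was followed by small differences in few genes. Mitochondrially encoded messenger and ribosomal RNAs were higher in the denosumab libraries, and a set of nuclear genes rich in G and C, 10 of them on chromosome 19, were lower. Of 17351 genes tested, 30 passed at an adjusted p under 0.05, which is 0.173% of them. Among these, 10 rose (0.0576%) and 20 fell (0.115%). The 10 genes that rose are GOLGA8A, MT-RNR1, MT-RNR2, MT-ATP6, MT-ND2, MT-ND4, MT-CO3, MT-CYB, MT-CO2 and MTATP6P1. The 20 that fell are RABAC1, CYBA, ARHGAP45, UBALD1, TLNRD1, NUMBL, PAK4, BBLN, RHOB, PABPN1, NMRK2, CORO1B, STK11, MIDN, COX5B, SNX8, GPX4, RPS15, MKNK2 and DHCR7. The sizes ran from 0.24 to 0.40 on the log2 scale among the genes that rose, and from -0.72 to -0.21 among those that fell, and the median over all genes tested was 0.012. At an unadjusted p under 0.05 there were 698 genes higher (4.02%) and 1340 lower (7.72%).

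The test was edgeR's quasi-likelihood F test on all 16 NTera2 libraries with the passage as a block, and without that block 0 genes passed. All 30 kept their sign and an unadjusted p under 0.05 there. They were chosen from the same libraries, so this is no separate support. The count also rested on single libraries: it was 957 without vehicle library 3, 598 without pair 3 (passage 30), 0 without pair 1 or without pair 2, and 5 without pair 4. It was 3, 17, 7 and 5 without denosumab library 1, 2, 3 or 4, and 3, 3 and 4 without vehicle library 1, 2 or 4. Pair 3 lay nearest to 0 of the 4 pairs in 27 of the 30 genes, against 32.5% of all genes tested.

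**Figure D1:**
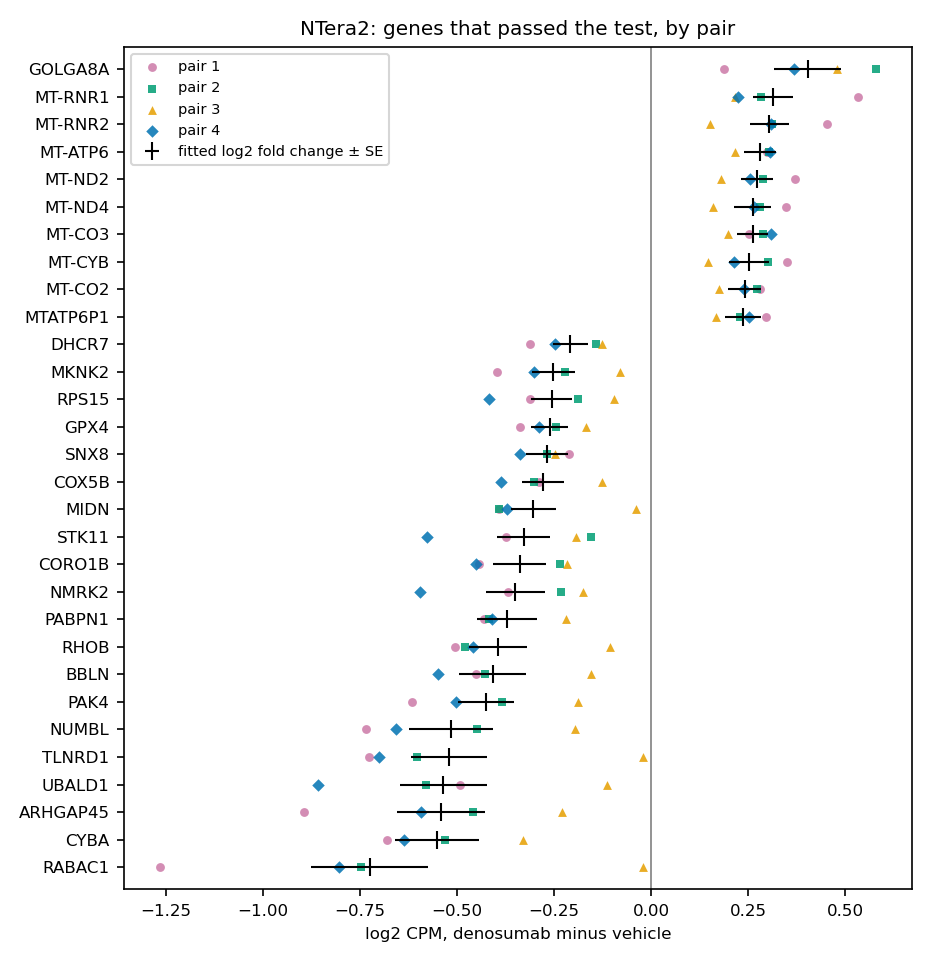
Log2 CPM of the denosumab library minus that of the vehicle library of the same passage (x axis) for the 30 genes that passed the test in NTera2 (y axis), with 1 symbol per pair and the fitted log2 fold change ± SE in black. All 4 pairs lie on the same side of 0 for each of the 30 genes, and pair 3 is nearest to 0 in 27 of them.

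The genes that rose and fell differ in base composition, which their coding sequences show. The stretches below are the opening 90 coding bases of 8 of the 30 genes, from GENCODE v29 transcripts (GRCh38), written 5′ to 3′ with G and C in capitals. The opening 3 are the messenger RNAs that rose and passed under the most analysis settings, the next 3 are the genes that fell and passed under the most settings, and the last 2 are the genes that fell whose difference was nearest to 0 once GC content and transcript length were corrected for.
MT-ATP6: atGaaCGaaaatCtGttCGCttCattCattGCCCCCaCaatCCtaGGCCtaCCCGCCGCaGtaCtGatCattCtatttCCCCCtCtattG
MT-ND2: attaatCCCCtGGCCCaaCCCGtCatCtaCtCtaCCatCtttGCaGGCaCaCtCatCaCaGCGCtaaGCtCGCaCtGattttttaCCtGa
MT-CO3: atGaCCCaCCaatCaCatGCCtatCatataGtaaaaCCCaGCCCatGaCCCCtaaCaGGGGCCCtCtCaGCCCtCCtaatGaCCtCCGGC
PAK4: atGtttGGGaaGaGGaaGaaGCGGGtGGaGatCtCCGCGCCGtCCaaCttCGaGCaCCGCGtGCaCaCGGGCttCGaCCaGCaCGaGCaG
TLNRD1: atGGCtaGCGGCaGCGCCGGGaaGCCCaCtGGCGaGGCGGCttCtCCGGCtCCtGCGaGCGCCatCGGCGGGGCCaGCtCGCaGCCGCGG
CYBA: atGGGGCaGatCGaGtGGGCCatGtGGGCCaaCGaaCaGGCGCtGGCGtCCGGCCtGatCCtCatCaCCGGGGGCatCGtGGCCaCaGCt
RPS15: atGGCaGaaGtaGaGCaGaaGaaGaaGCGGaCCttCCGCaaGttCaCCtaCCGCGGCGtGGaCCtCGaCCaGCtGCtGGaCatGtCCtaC
GPX4: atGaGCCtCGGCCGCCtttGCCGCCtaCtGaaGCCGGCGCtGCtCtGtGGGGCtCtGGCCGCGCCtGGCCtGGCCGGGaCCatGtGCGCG
G and C make up 47.8% of the printed bases of MT-ATP6, 48.9% of those of MT-ND2 and 54.4% of those of MT-CO3. The share is 62.2% in PAK4, 76.7% in TLNRD1, 66.7% in CYBA, 57.8% in RPS15 and 73.3% in GPX4. The printed bases of MT-ATP6 lie at 8527 to 8616 and those of MT-ND2 at 4470 to 4559 of the mitochondrial genome, and those of MT-CO3 at 9207 to 9296. Those of PAK4 lie in exon 4 at chromosome 19, 39169554 to 39169643, and those of TLNRD1 in exon 1 at chromosome 15, 81002272 to 81002361, all on the plus strand. The stretch of CYBA crosses from exon 1 into exon 2 on the minus strand of chromosome 16, between 88648083 and 88651013. On the plus strand of chromosome 19, that of GPX4 crosses from exon 1 into exon 2 between 1104044 and 1105191, and that of RPS15 runs from exon 1 into exon 3 between 1438426 and 1440019.

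The mitochondrial genome encodes 13 subunits of the respiratory chain and of ATP synthase, and its transcripts are made by a polymerase of their own inside the organelle. All 13 messenger RNAs had a positive log2 fold change, 6 of them rose, and 12 were higher in 4 of 4 pairs. Over all genes tested, 53% had a positive log2 fold change and 9.46% were higher in 4 of 4 pairs. The median of the 13 was 0.25, between 0.16 for MT-CO1 and 0.30 for MT-ND5.

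MT-ND2, a subunit of complex I (ENSG00000198763, chromosome MT, 4470 to 5511 of the hg38 mitochondrial genome), had 2525, 2078, 2272 and 2209 CPM in the denosumab libraries, against 1954, 1702, 2005 and 1851 CPM in the vehicle libraries. Every denosumab library lay above every vehicle library. The log2 fold change of MT-ND2 was 0.27 (SE 0.0408, edgeR adjusted p = 0.00182). MT-ATP6, a membrane subunit of ATP synthase (ENSG00000198899, chromosome MT, 8527 to 9207), had 2466, 2101, 2131 and 2207 CPM in the denosumab libraries, against 2005, 1703, 1835 and 1785 CPM in the vehicle libraries. No overlap was seen between the groups, and denosumab library 1 was the highest of the 8. The log2 fold change of MT-ATP6 was 0.28 (SE 0.0408, edgeR adjusted p = 0.00182). MT-CO3, a core subunit of cytochrome c oxidase (ENSG00000198938, chromosome MT, 9207 to 9990), had 4414, 3971, 4033 and 4275 CPM in the denosumab libraries, against 3707, 3250.3, 3517 and 3452 CPM in the vehicle libraries. The lowest denosumab library, library 2, was above the highest vehicle library, library 1. The log2 fold change of MT-CO3 was 0.26 (SE 0.0393, edgeR adjusted p = 0.00182).

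The other 3 messenger RNAs that rose belong to complexes I, III and IV. MT-ND4 averaged 7328 ± 478 CPM with denosumab and 6102 ± 221 CPM with vehicle (SD, n = 4 each), a log2 fold change of 0.26 (SE 0.0478, edgeR adjusted p = 0.0261). MT-CYB, the mitochondrial subunit of complex III, averaged 2292 ± 100.5 CPM with denosumab and 1924 ± 95.8 CPM with vehicle, a log2 fold change of 0.25 (SE 0.0515, edgeR adjusted p = 0.0482). MT-CO2 averaged 7047 ± 283 CPM with denosumab and 5963 ± 260.2 CPM with vehicle, a log2 fold change of 0.24 (SE 0.0433, edgeR adjusted p = 0.0213). In all 3 the denosumab libraries were above all vehicle libraries, which held for 1.52% of the genes tested. These 3 were chosen by the test of the same libraries, so the lack of overlap is no separate support. Among the 7 that did not pass, MT-CO1 was at 0.16 (SE 0.0368, adjusted p = 0.0705), MT-ND5 at 0.30 (SE 0.0624, adjusted p = 0.0710) and MT-ND1 at 0.21 (SE 0.0540, adjusted p = 0.106). MT-ATP8 overlaps MT-ATP6, and MT-ND4L overlaps MT-ND4, so their counts cannot be fully told apart. MT-ND6, the messenger encoded on the opposite strand from the other 12, was at 0.23 (SE 0.100, adjusted p = 0.353) and was higher in 3 of 4 pairs.

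Taken as a share of all counts, the 13 messengers made up 4.06%, 3.59%, 3.64% and 3.89% of the denosumab libraries, against 3.36%, 2.99%, 3.30% and 3.22% of the vehicle libraries. Each denosumab library was above all vehicle libraries. The mean was 3.79 ± 0.221% with denosumab and 3.22 ± 0.164% with vehicle (SD, n = 4 each), and the pair differences were 0.701, 0.601, 0.339 and 0.668 percentage points. An exact two-sided permutation test that flips the sign within pairs gave p = 0.12, the smallest that 4 pairs allow, and one that permutes the 8 libraries freely gave p = 0.0286, the smallest that 4 against 4 allow. In bulk RNA, more mitochondrial transcript per cell and more cells rich in mitochondria cannot be told apart.

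**Figure D2:**
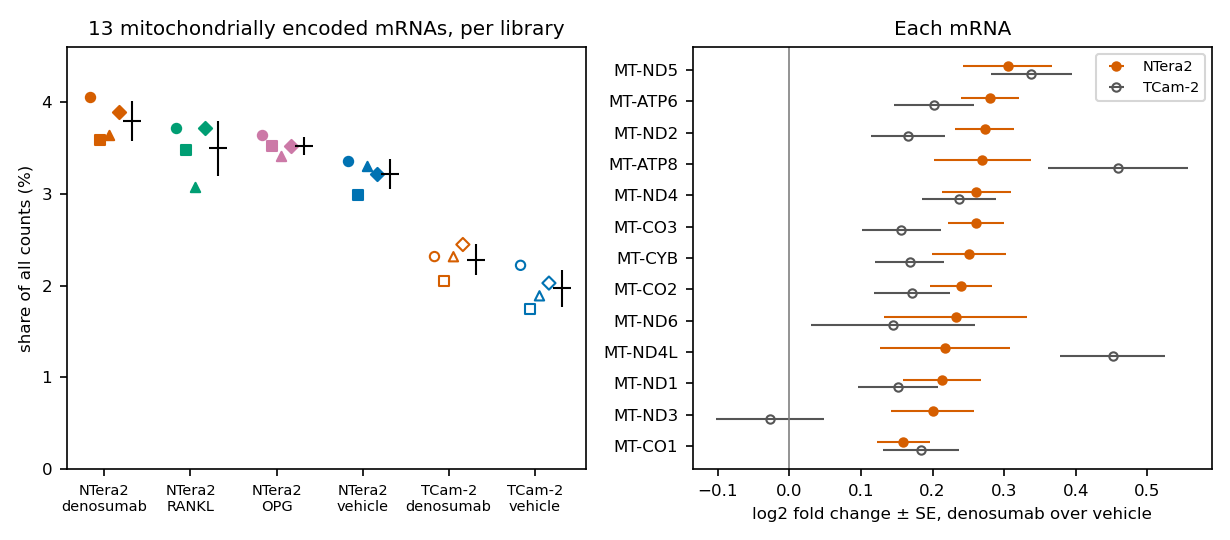
Left, the share of all counts from the 13 mitochondrially encoded messenger RNAs (y axis, %) in each library, by group (x axis), with 1 symbol shape per replicate number and mean ± SD at the right of each group. Right, log2 fold change ± SE of each messenger, denosumab over vehicle, in NTera2 (filled) and TCam-2 (open). The 4 NTera2 denosumab libraries lie between 3.59% and 4.06%, above the 4 NTera2 vehicle libraries, and 12 of 13 messengers are also above 0 in TCam-2.

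Both ribosomal RNAs of the mitochondrion rose with the messengers. MT-RNR1, the small-subunit RNA (ENSG00000211459, chromosome MT, 648 to 1601), had 346, 331, 290.3 and 314 CPM in the denosumab libraries, against 239.7, 272, 250.1 and 269 CPM in the vehicle libraries. MT-RNR2, the large-subunit RNA, had 2779, 2388, 2259 and 2658 CPM in the denosumab libraries, against 2032, 1926, 2033 and 2145 CPM in the vehicle libraries. Neither showed overlap between the groups. The log2 fold change was 0.31 (SE 0.0519, edgeR adjusted p = 0.00672) for MT-RNR1 and 0.30 (SE 0.0492, edgeR adjusted p = 0.00887) for MT-RNR2. The other 7 tested genes of the mitochondrial genome encode transfer RNAs, which poly(A) libraries capture poorly, and none passed. Of these 5 were positive and 2 negative, from -0.56 for MT-TM to 0.97 for MT-TV, with SEs from 0.110 for MT-TL1 to 0.727 for MT-TI. MT-TL1, at a mean of 16.9 CPM, was at 0.087 (adjusted p = 0.832), and the others averaged no more than 1.02 CPM. MTATP6P1, a near-identical nuclear copy of mitochondrial sequence on chromosome 1, was at 0.24 (SE 0.0461, edgeR adjusted p = 0.0261), and how reads were divided between it and the mitochondrial genome is not given in the sources used here.

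GOLGA8A, a Golgi-associated coiled-coil protein gene (ENSG00000175265, chromosome 15, 34379068 to 34437808), was the only gene that rose outside mitochondrial sequence and its nuclear copy. It had 40.1, 36.6, 40.02 and 37.9 CPM in the denosumab libraries, against 35.2, 24.5, 28.7 and 29.3 CPM in the vehicle libraries. The lowest denosumab library, library 2, was above the highest vehicle library, library 1. The log2 fold change was 0.40 (SE 0.0870, edgeR adjusted p = 0.0482). The gene belongs to a family of near-identical copies on chromosome 15, so its count is uncertain.

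Several of the 20 genes that fell encode proteins of the actin cytoskeleton and its regulation, a grouping made after their values were seen and without a test. PAK4, a kinase that acts below the GTPase CDC42 (ENSG00000130669, chromosome 19, 39125770 to 39178817), had 62.7, 89.4, 86.6 and 79.2 CPM in the denosumab libraries, against 96.1, 117, 98.7 and 112 CPM in the vehicle libraries. All denosumab libraries lay below all vehicle libraries, library 1 lowest, and the log2 fold change was -0.43 (SE 0.0714, edgeR adjusted p = 0.00741). RHOB, a small GTPase of endosomes (ENSG00000143878, chromosome 2, 20447074 to 20449440), had 33.7, 40.1, 43.1 and 43.4 CPM in the denosumab libraries, against 47.97, 55.9, 46.4 and 59.7 CPM in the vehicle libraries. The groups did not overlap, and in pair 3 the difference was small, at -0.11 on the log2 scale. RHOB was at -0.39 (SE 0.0747, edgeR adjusted p = 0.0221). TLNRD1, an actin-bundling protein (ENSG00000140406, chromosome 15, 81000923 to 81005788), had 20.97, 26.4, 29.3 and 23.6 CPM in the denosumab libraries, against 34.8, 40.1, 29.8 and 38.5 CPM in the vehicle libraries. Its vehicle library 3 lay just above denosumab library 3, and the fitted log2 fold change was -0.52 (SE 0.0980, edgeR adjusted p = 0.0219). ARHGAP45, a GTPase-activating protein, averaged 25.9 ± 5.62 CPM with denosumab and 37.3 ± 5.897 CPM with vehicle, a log2 fold change of -0.54 (SE 0.114, edgeR adjusted p = 0.0465). CORO1B, a coronin that binds actin filaments, was at -0.34 (SE 0.0683, edgeR adjusted p = 0.0362), with overlap between the groups.

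CYBA, the p22phox subunit shared by NADPH oxidases (ENSG00000051523, chromosome 16, 88643289 to 88651053), had 35.002, 53.4, 43.6 and 44.3 CPM in the denosumab libraries, against 56.2, 77.2, 54.9 and 68.9 CPM in the vehicle libraries. All 4 denosumab libraries were below all 4 vehicle libraries, and the log2 fold change was -0.55 (SE 0.107, edgeR adjusted p = 0.0386). GPX4, the peroxidase that reduces lipid hydroperoxides (ENSG00000167468, chromosome 19, 1103994 to 1106779), had 228, 297, 269.98 and 269 CPM in the denosumab libraries, against 289, 352, 303 and 329 CPM in the vehicle libraries. Its groups overlapped, since denosumab library 2 was above vehicle library 1, although each denosumab library was below its own pair. GPX4 was at -0.26 (SE 0.0469, edgeR adjusted p = 0.0138). DHCR7, which catalyses a last step of cholesterol synthesis (ENSG00000172893, chromosome 11, 71428193 to 71452868), had 173, 199.99, 200.03 and 184 CPM in the denosumab libraries, against 215, 221, 218 and 219 CPM in the vehicle libraries. The vehicle libraries lay close together, all denosumab libraries were lower, and the log2 fold change was -0.21 (SE 0.0452, edgeR adjusted p = 0.0482). NMRK2, a nicotinamide riboside kinase, was at -0.35 (SE 0.0758, edgeR adjusted p = 0.0482) with overlapping groups.

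Of the nuclear subunits of cytochrome c oxidase, COX5B (ENSG00000135940, chromosome 2, 97646062 to 97648383) fell. It had 97.8, 112, 109 and 109.98 CPM in the denosumab libraries, against 119.6, 138, 119 and 144 CPM in the vehicle libraries. The groups did not overlap, and the log2 fold change was -0.28 (SE 0.0541, edgeR adjusted p = 0.0261), opposite in sign to those of the 3 mitochondrially encoded subunits of the same complex. RPS15, a protein of the small cytosolic ribosomal subunit (ENSG00000115268, chromosome 19, 1438358 to 1440494), had 461, 604, 545 and 494 CPM in the denosumab libraries, against 572, 689, 582 and 659 CPM in the vehicle libraries. Denosumab library 2 stood above vehicle library 1 and vehicle library 3, so the groups overlapped, and the log2 fold change was -0.26 (SE 0.0525, edgeR adjusted p = 0.0386). Reads of ribosomal protein genes can be shared with processed pseudogenes.

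RABAC1, which binds prenylated Rab GTPases (ENSG00000105404, chromosome 19, 41956681 to 41959266), had 7.02, 12.7, 12.9 and 12.8 CPM in the denosumab libraries, against 17.04, 21.5, 13.1 and 22.4 CPM in the vehicle libraries. Denosumab library 1 was far below the others, and in pair 3 the libraries differed by -0.021 on the log2 scale. RABAC1 was at -0.72 (SE 0.150, edgeR adjusted p = 0.0386). PABPN1, the nuclear poly(A)-binding protein (ENSG00000100836, chromosome 14, 23321457 to 23326163), had 40.9, 56.4, 47.95 and 51.1 CPM in the denosumab libraries, against 55.2, 75.3, 55.8 and 67.9 CPM in the vehicle libraries. Denosumab library 2 was above vehicle libraries 1 and 3, and the log2 fold change was -0.37 (SE 0.0779, edgeR adjusted p = 0.0386). The gene overlaps a read-through gene with BCL2L2, so its count is uncertain. STK11, the kinase LKB1 that activates AMPK, averaged 80.1 ± 10.6 CPM with denosumab and 100.2 ± 10.9 CPM with vehicle, a log2 fold change of -0.33 (SE 0.0691, edgeR adjusted p = 0.0386). MKNK2, a kinase of the cap-binding factor eIF4E, averaged 133 ± 15.3 CPM with denosumab and 158 ± 12.6 CPM with vehicle, a log2 fold change of -0.25 (SE 0.0548, edgeR adjusted p = 0.0482).

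NUMBL, a relative of the Notch antagonist NUMB, was at -0.52 (SE 0.108, edgeR adjusted p = 0.0386), and MIDN, which carries proteins to the proteasome, at -0.30 (SE 0.0588, edgeR adjusted p = 0.0261). SNX8, a sorting nexin of endosomes, was at -0.27 (SE 0.0529, edgeR adjusted p = 0.0261). UBALD1 was at -0.53 (SE 0.111, edgeR adjusted p = 0.0386) and BBLN at -0.41 (SE 0.0852, edgeR adjusted p = 0.0386). Groups did not overlap for NUMBL, MIDN and UBALD1, and overlapped for SNX8 and BBLN. In all, 11 of the 20 genes that fell had no overlap between the groups, a pattern shown by 1.95% of the genes tested. All 20 were lower in 4 of 4 pairs, against 10.4% of the genes tested, of which 47% had a negative log2 fold change. The 20 were chosen by the paired test of these same libraries, which favours both patterns, so neither is separate support.

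Differences between the groups followed the GC content of the transcript across all genes. The median log2 fold change was 0.095 in the decile of genes with the lowest GC content (27.8% to 39.1%) and -0.22 in the decile with the highest (61.9% to 76.8%), and it declined at each step in between. All 20 genes that fell were above the median GC content of all tested genes (49.1%), with a median of 62.9%, and the 10 that rose had a median of 44.9%. Chromosome 19, which is rich in GC, held 10 of the 20 against 7.11% of the genes tested. Within each library, the slope of log2 CPM on GC content, relative to the mean of the 16 NTera2 libraries, averaged -0.035 ± 0.075 log2 units per 10 GC points with denosumab and 0.067 ± 0.085 with vehicle (SD, n = 4 each). It was lower with denosumab in 4 of 4 pairs, by 0.104, 0.105, 0.029 and 0.169 (exact sign-flip p = 0.12, the smallest possible). The groups overlapped, with denosumab library 2 at 0.059 and vehicle library 1 at -0.017, and an exact permutation of the 8 libraries gave p = 0.143. Pair 3, nearest to 0 in most of the 30 genes, had the smallest difference in slope. The part of these slopes in the gene differences was not tested beyond the correction described next.

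After each library was corrected for GC content and transcript length, 14 genes passed, 8 higher and 6 lower, and 13 of them were among the 30. These were MT-ND2, MT-CO3, MT-ATP6, MT-RNR1, MT-RNR2, MT-CO2 and MT-ND4, all higher, and PAK4, COX5B, CYBA, TLNRD1, RHOB and PABPN1, all lower. MT-ND2 was then at 0.20 (SE 0.0287, edgeR adjusted p = 0.000973). PAK4 was at -0.33 (SE 0.0551, edgeR adjusted p = 0.00326) and COX5B at -0.31 (SE 0.0523, edgeR adjusted p = 0.00510). The additional gene was IGFBPL1, at 0.26 (SE 0.0483, edgeR adjusted p = 0.0159). The other 17 no longer passed. Some of them kept much of their size: GOLGA8A was at 0.37 (adjusted p = 0.0601), MT-CYB at 0.21 (adjusted p = 0.0808), NUMBL at -0.41 (adjusted p = 0.0874) and RABAC1 at -0.52 (adjusted p = 0.122). MTATP6P1 was at 0.15, DHCR7 at -0.14, UBALD1 at -0.29 and ARHGAP45 at -0.27. NMRK2 was at -0.17, MIDN at -0.13, CORO1B at -0.12 and MKNK2 at -0.10. Others came near 0: RPS15 moved to -0.0014, GPX4 to -0.036, STK11 to -0.065, SNX8 to -0.076 and BBLN to -0.090. All 30 kept their sign, and 25 kept an unadjusted p under 0.05, in the same libraries from which the 30 were chosen.

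**Figure D3:**
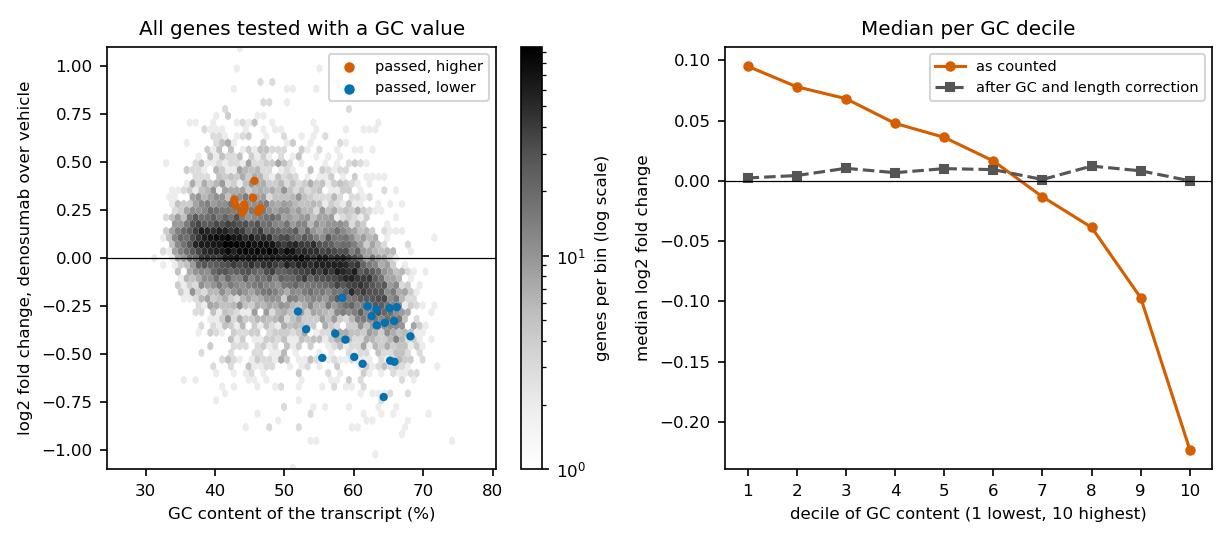
Left, log2 fold change of denosumab over vehicle in NTera2 (y axis, shown between -1.1 and 1.1) against the GC content of 1 transcript per gene (x axis, %), as a density of all tested genes with a GC value and with the 30 genes that passed as dots. Right, the median log2 fold change in each decile of GC content, as counted (circles) and with GC content and length corrected (squares). The medians as counted go down to -0.22 in the highest decile. With the correction, which by its design takes the GC trend out of each library, the largest is 0.012.

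The ligand and receptors of the pathway that denosumab targets were expressed at low levels and did not pass. TNFRSF11A (ENSG00000141655, chromosome 18, 62325287 to 62387659) had 7.85, 6.68, 5.83 and 6.28 CPM in the denosumab libraries, against 8.64, 7.94, 8.06 and 6.49 CPM in the vehicle libraries. It was lower with denosumab in 4 of 4 pairs, but the groups overlapped and the log2 fold change was -0.22 (SE 0.153, edgeR adjusted p = 0.629). TNFSF11 (ENSG00000120659, chromosome 13, 42562736 to 42607174) had 1.59, 2.02, 1.496 and 1.48 CPM in the denosumab libraries, against 2.45, 1.53, 1.95 and 1.36 CPM in the vehicle libraries, and TNFRSF11B had 0.752, 1.76, 1.87 and 1.55 CPM in the denosumab libraries, against 1.98, 1.73, 1.78 and 1.61 CPM in the vehicle libraries. Both overlapped widely between the groups, with log2 fold changes of -0.15 (SE 0.307, edgeR adjusted p = 0.912) and -0.26 (SE 0.320, edgeR adjusted p = 0.830). With 19 to 42 counts of TNFSF11 per library, and an SE of 0.307, moderate differences were not detectable at this depth.

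None of the genes that carry or answer the RANK signal passed. Values of list members from here on are as counted unless said to be corrected for GC content and length. Of 21 RANK adaptors and proximal kinases, 11 had a positive and 10 a negative log2 fold change, with a median of 0.027. TAB2 had the smallest p of this list, at 0.16 (SE 0.0712, edgeR adjusted p = 0.351), and was higher in 3 of 4 pairs. GAB2, an adaptor that RANK uses in osteoclast precursors, was at 0.19 (SE 0.0979, adjusted p = 0.464), with no overlap between the groups. TRAF3, which restrains the non-canonical NF-kB pathway, was at -0.18 (SE 0.0938, adjusted p = 0.461). Of 14 NF-kB subunits and inhibitors, 10 were negative and the median was -0.065, which became 0.053 after the GC and length correction. NFKBIB had the smallest p of these, at -0.34 (SE 0.0983, edgeR adjusted p = 0.121), with overlap between the groups, and was at -0.18 after the correction. RELB, the non-canonical subunit, had 3.59, 3.603, 4.26 and 3.104 CPM in the denosumab libraries, against 4.902, 5.804, 5.26 and 4.76 CPM in the vehicle libraries. All denosumab libraries were below all vehicle libraries, but the log2 fold change of -0.51 (SE 0.184, edgeR adjusted p = 0.222) did not pass. RELB was at -0.26 after the correction. Of 24 NF-kB target genes 15 could be tested, with a median of -0.026. BIRC2, an inhibitor of apoptosis, was at 0.23 (SE 0.0858, adjusted p = 0.253) and ICAM1, an adhesion molecule, at -0.36 (SE 0.136, adjusted p = 0.256).

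Of 18 osteoclast genes downstream of RANK, 10 were expressed enough to be tested, 8 of them with negative values and a median of -0.12, and none passed. JDP2, an AP-1 family repressor, had 7.602, 9.14, 10.4 and 12.7 CPM in the denosumab libraries, against 14.5, 15.01, 12.98 and 14.4 CPM in the vehicle libraries. All denosumab libraries were below all vehicle libraries, and the log2 fold change was -0.51 (SE 0.136, edgeR adjusted p = 0.106). CLCN7, a lysosomal chloride transporter, was at -0.29 (SE 0.0744, adjusted p = 0.106) and TCIRG1, a subunit of the vacuolar proton pump, at -0.34 (adjusted p = 0.237). Both are rich in GC, and after the correction CLCN7 was at -0.046 and TCIRG1 at -0.085, while JDP2 stayed at -0.50. The list of vacuolar ATPase and lysosome genes had 21 positive and 14 negative values among 35, with a median of 0.025. GAA, the lysosomal acid glucosidase, came nearest to the threshold there, at -0.27 (SE 0.0645, adjusted p = 0.0774), and was at -0.062 after the correction. Denosumab is an IgG, and of 18 Fc receptor, complement and IgG-handling genes 9 could be tested and none passed. FCGR1A and FCGR3A had no counts in the 8 libraries, and FCGRT, the neonatal Fc receptor, was at -0.20 (SE 0.132, adjusted p = 0.611). CD46 had the smallest p of this list, at 0.11 (SE 0.0585, edgeR adjusted p = 0.455).

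Nuclear genes of the respiratory chain had values on both sides of 0. Of 37 nuclear complex I subunits none passed and the median was -0.020, with 17 positive and 20 negative. NDUFA11 was at -0.38 (SE 0.100, adjusted p = 0.106) and NDUFS7 at -0.56 (SE 0.147, adjusted p = 0.126). After the GC and length correction they were at -0.21 and -0.33. Of 26 nuclear genes of complexes II, III and IV and cytochrome c, COX5B passed, 15 were positive and the median was 0.013. Of 18 nuclear ATP synthase subunits, 13 were positive and the median was 0.066, with none past the threshold. ATP5PF, a stalk subunit, was at 0.13 (SE 0.0567, adjusted p = 0.322) and ATP5F1D, a central-stalk subunit, at -0.45 (SE 0.141, adjusted p = 0.196). With the correction ATP5PF was at 0.14 and ATP5F1D at -0.065. Whether the mitochondrial and the nuclear messengers differed from each other was not tested.

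Genes that transcribe mitochondrial DNA and process its RNA numbered 30, of which 21 were positive and none passed (median 0.054). ESRRA had the smallest p of this list, at -0.29 (SE 0.0869, edgeR adjusted p = 0.136) as counted and -0.11 after the GC and length correction. FASTKD5, which processes mitochondrial messengers at sites without a transfer RNA, had 47.1, 42.7, 43.4 and 45.01 CPM in the denosumab libraries, against 40.7, 37.2, 36.4 and 37.1 CPM in the vehicle libraries. All denosumab libraries were above all vehicle libraries, and the log2 fold change was 0.23 (SE 0.0739, edgeR adjusted p = 0.162). POLRMT, the mitochondrial RNA polymerase, was at -0.30 (SE 0.0853, adjusted p = 0.142) as counted and at -0.016 after the GC and length correction. Of 76 tested mitochondrial ribosomal protein genes none passed, and 35 were positive and 41 negative (median -0.0084). MRPL34 had 30.2, 41.4, 39.3 and 40.4 CPM in the denosumab libraries, against 41.9, 57.8, 42.5 and 58.5 CPM in the vehicle libraries. Its groups did not overlap, and its log2 fold change of -0.41 (SE 0.104, edgeR adjusted p = 0.106) stayed at -0.39 after the correction. Of 77 cytosolic ribosomal protein genes, RPS15 passed, and 48 were positive and 29 negative (median 0.015).

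Cholesterol synthesis genes were mostly on the negative side, with 20 of 26 negative and a median of -0.083, and DHCR7 alone passed. Of the 26, 12 were lower in 4 of 4 pairs. Over all genes tested, 10.4% were lower in 4 of 4 pairs and 47% had a negative log2 fold change. The members share the same 4 pairs and are not independent. Their median GC content was 52.0%, against 49.1% over all genes tested. SREBF2, the transcription factor of the pathway, was at -0.14 (SE 0.0393, adjusted p = 0.118). MVD, an enzyme of the mevalonate pathway, averaged 87.5 ± 15.9 CPM with denosumab and 121 ± 21.4 CPM with vehicle, a log2 fold change of -0.48 (SE 0.127, edgeR adjusted p = 0.146). The median of the list was -0.063 after the GC and length correction. Of 14 tested fatty acid synthesis genes, 10 were negative and none passed (median -0.032). FASN, the fatty acid synthase, had 874, 1302, 1194 and 1170.2 CPM in the denosumab libraries, against 1473, 1622, 1297 and 1676 CPM in the vehicle libraries. Denosumab library 1 was the lowest, denosumab library 2 lay at the level of vehicle library 3, and the log2 fold change was -0.43 (SE 0.139, edgeR adjusted p = 0.245). FASN was at -0.17 (SE 0.0365, edgeR adjusted p = 0.0601) after the correction. Glycolysis and hypoxia genes split into 15 positive and 16 negative of 31 (median -0.0034), and PFKL, the liver-type phosphofructokinase, was at -0.27 (SE 0.0664, adjusted p = 0.104). PFKL was at -0.084 after the correction.

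Stress lists held no gene that passed. Of 26 genes of the integrated stress and unfolded protein response, 19 were negative (median -0.048). CEBPB had the smallest p of these, at -0.45 (SE 0.136, edgeR adjusted p = 0.150) as counted and -0.18 after the GC and length correction. TRIB3, a pseudokinase induced in this response, had 22.9, 23.8, 25.7 and 23.1 CPM in the denosumab libraries, against 30.7, 29.4, 26.04 and 29.8 CPM in the vehicle libraries. The groups did not overlap, and the log2 fold change was -0.28 (SE 0.0857, edgeR adjusted p = 0.150), or -0.16 after the GC and length correction. Heat shock genes were evenly split, 9 positive and 9 negative. HSP90AA1, the inducible HSP90, was at 0.12 (SE 0.0353, adjusted p = 0.132), and HSPB1, a small heat shock protein, at -0.26 (SE 0.0662, adjusted p = 0.106). With the correction HSP90AA1 was at 0.077 and HSPB1 at -0.053. Of 22 p53 targets 12 were positive (median 0.026), and BBC3, the death gene PUMA, was at -0.41 (SE 0.127, adjusted p = 0.162) as counted and -0.013 after the correction. Of 24 tested apoptosis regulators, 12 were positive and 12 negative (median 0.0029).

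Proliferation genes gave no gene that passed. Of 24 S phase genes 17 were positive (median 0.017), and CDT1, which licenses replication origins, was at -0.35 (SE 0.101, adjusted p = 0.153). CDT1 was at -0.11 after the GC and length correction. Of 24 mitosis genes 17 were positive (median 0.065), among them KIF11, a spindle motor, at 0.19 (SE 0.0633, adjusted p = 0.190) and CENPF, a centromere protein, at 0.12 (SE 0.0425, adjusted p = 0.198). The mitosis list has a low median GC content, 42.9%, and its median was 0.0044 after the correction. Of 13 tested G1 cyclins, CDKs and inhibitors, 9 were negative (median -0.11). CDKN1B, the inhibitor p27, had 58.5, 64.8, 59.99 and 64.2 CPM in the denosumab libraries, against 61.9, 80.7, 70.6 and 75.4 CPM in the vehicle libraries. Each denosumab library was below its pair, the groups overlapped, and the log2 fold change of -0.22 (SE 0.0642, edgeR adjusted p = 0.128) did not shrink after the correction, at -0.25. CDKN2A, which encodes p16 and p14ARF, was at -0.65 (SE 0.208, adjusted p = 0.170), and CCND2, cyclin D2, at 0.15 (SE 0.0483, adjusted p = 0.178).

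No pluripotency factor passed. Of 19 tested core factors, 9 were positive and 10 negative (median -0.013). NANOG averaged 68.9 ± 8.996 CPM with denosumab and 65.4 ± 6.92 CPM with vehicle, a log2 fold change of 0.072 (SE 0.0639, edgeR adjusted p = 0.732). SOX2 had 264, 299, 265 and 257 CPM in the denosumab libraries, against 298, 353, 284 and 345 CPM in the vehicle libraries. It was lower with denosumab in 4 of 4 pairs with overlap between the groups, and the log2 fold change of -0.24 (SE 0.0648, edgeR adjusted p = 0.117) did not pass. UTF1, a chromatin factor of pluripotent cells, was at -1.35 (SE 0.353, adjusted p = 0.106) from levels of no more than 3.95 CPM. UTF1 was at -0.77 after the GC and length correction. Of 18 embryonal carcinoma markers, 12 were negative (median -0.042), and TNFRSF8, the surface antigen CD30, was at -0.19 (SE 0.0588, adjusted p = 0.158). With the correction TNFRSF8 was at -0.050. Of 16 germ cell and seminoma markers, 11 could be tested and none passed. KIT, whose levels stand above, was at 0.17 (SE 0.0871, adjusted p = 0.448).

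Differentiation and signalling genes gave small values too. Of 15 tested neural genes 10 were negative (median -0.068), and TUBB3, neuronal tubulin, was at -0.35 (SE 0.104, adjusted p = 0.136). Of 8 tested endoderm, mesoderm and trophoblast genes, 5 were negative (median -0.025). WNT targets and antagonists had 7 positive and 11 negative of 18 (median -0.062). Genes of the NODAL, TGF-beta and BMP pathways had 9 positive and 14 negative of 23 (median -0.016). ID3, a target of BMP signalling, had 50.96, 69.7, 68.6 and 63.6 CPM in the denosumab libraries, against 72.5, 82.8, 75.1 and 80.5 CPM in the vehicle libraries. The groups did not overlap, and the log2 fold change of -0.31 (SE 0.0741, edgeR adjusted p = 0.0828) was -0.26 after the correction. ID1, another BMP target, was at -0.42 (SE 0.107, adjusted p = 0.107). FGF and MAPK feedback genes had 9 positive and 11 negative of 20 (median -0.024).

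Immediate early genes, which respond within minutes to growth factors and stress, had 18 of 23 negative and 10 lower in 4 of 4 pairs, with none past the threshold. The shares over all genes tested were 47% negative and 10.4% lower in 4 of 4 pairs, and the 23 are not independent of each other. The median GC content of these genes was 55.1%, against 49.1% over all genes tested. Their median log2 fold change was -0.14 as counted and -0.11 after the GC and length correction, against 0.012 and 0.0069 over all genes. JUN, an AP-1 subunit, had 24.98, 31.8, 26.3 and 27.7 CPM in the denosumab libraries, against 32.7, 39.6, 29.3 and 39.1 CPM in the vehicle libraries. Denosumab library 2 was above vehicle library 3, so the groups overlapped, and the log2 fold change was -0.35 (SE 0.0985, edgeR adjusted p = 0.118). JUND was at -0.50 (SE 0.130, adjusted p = 0.118) and IER2 at -0.32 (SE 0.104, adjusted p = 0.188).

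Interferon response genes had 7 positive and 11 negative of 18 (median -0.023), and STAT2, a subunit of the interferon-activated factor ISGF3, was at 0.19 (SE 0.0656, adjusted p = 0.196). MHC class I genes had 4 positive and 8 negative of 12 (median -0.13). B2M, the light chain, was at 0.17 (SE 0.0622, adjusted p = 0.228), and HLA-B, whose reads can be shared with other HLA genes, at -0.21 (SE 0.0781, adjusted p = 0.242). Adhesion, mesenchymal and invasion genes had 16 positive of 27 (median 0.022), and replication-dependent histones had 9 negative of 14 (median -0.12), which are poorly captured by poly(A) selection. Markers of other cells showed no gene that passed, among 6 tested fibroblast, 5 tested immune and 9 tested Sertoli, Leydig and endothelial genes.

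**Figure D4:**
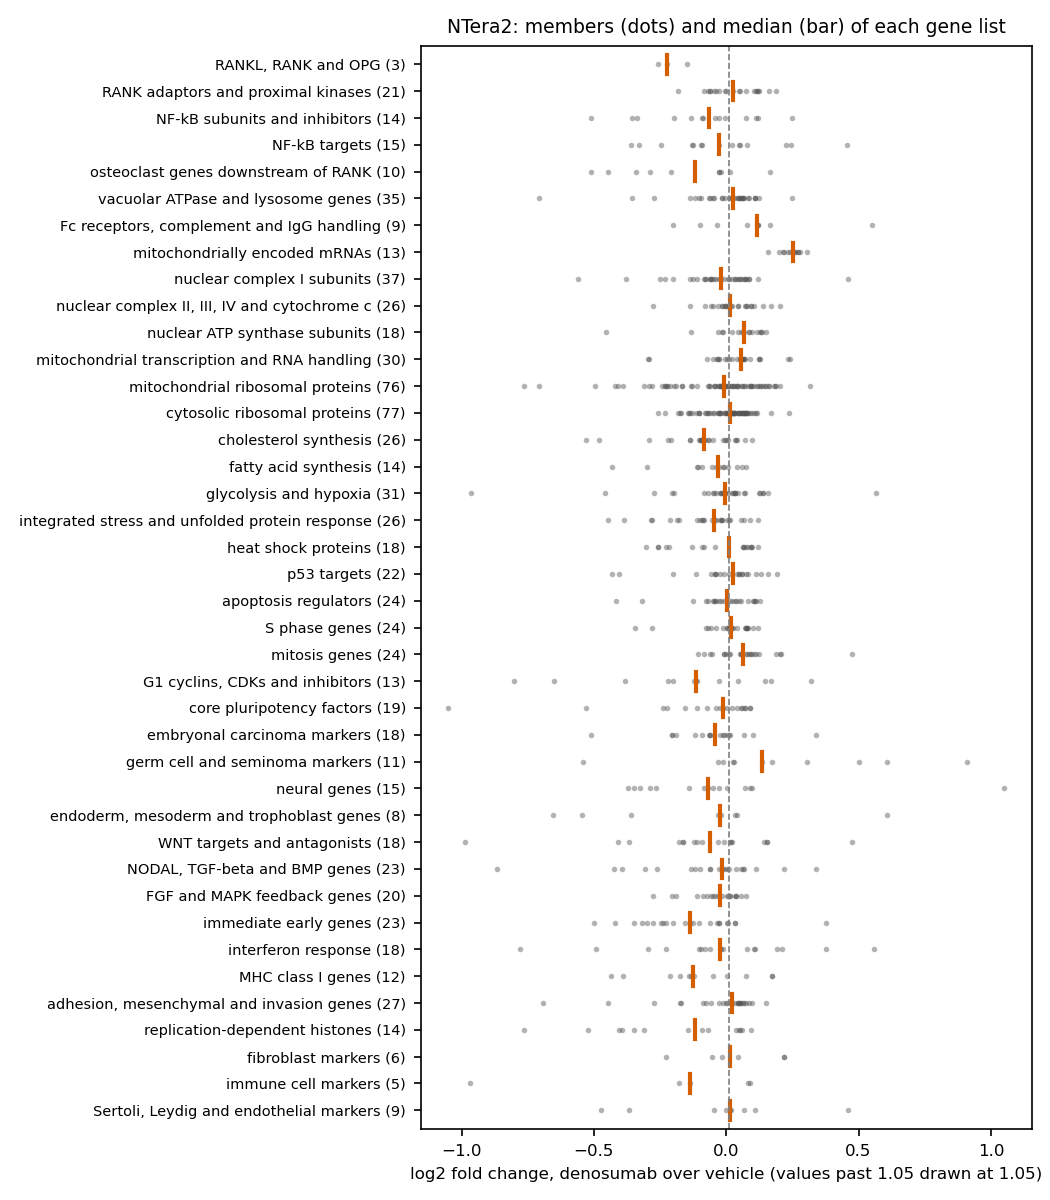
Log2 fold change of denosumab over vehicle in NTera2 (x axis) for the tested members (dots) of each of 40 gene lists (y axis, number tested in brackets), with the list median as a bar and the median over all genes tested, 0.012, as a dashed line. The mitochondrially encoded messengers form the only list whose dots all lie to the right of 0.15.

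RANKL and OPG were given to NTera2 cells in the same experiments, and their comparisons share the 4 vehicle libraries with that of denosumab, so a like sign among them is not independent. Against vehicle, 0 of 17351 genes passed with RANKL (0%, with 2834 or 16.3% at an unadjusted p under 0.05) and 0 with OPG (0%, with 757 or 4.36%). MT-ND2 was at 0.27 with denosumab, 0.16 with RANKL and 0.13 with OPG. PAK4 was at -0.43 with denosumab, -0.33 with RANKL and -0.16 with OPG. COX5B was at -0.28 with denosumab, -0.28 with RANKL and -0.27 with OPG. The 10 genes that rose lay between 0.089 and 0.18 with RANKL and between 0.13 and 0.19 with OPG, and the 20 that fell between -0.60 and -0.099 with RANKL and between -0.27 and -0.082 with OPG. The decile of highest GC content had a median of -0.22 with denosumab, -0.21 with RANKL and -0.087 with OPG.

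Denosumab was then compared with the other 2 agents directly. The contrasts take no vehicle library, although the vehicle libraries were in the fit of all 16 and so share in its estimate of the spread. Against RANKL, the ligand that denosumab binds, 0 genes passed in edgeR's test and in DESeq2 (1092, or 6.29%, and 1021 at an unadjusted p under 0.05). The smallest p among higher genes was that of SMIM3, at 0.67 (SE 0.149, edgeR adjusted p = 0.55), and among lower genes that of SERPINB9, a granzyme inhibitor, at -0.23 (SE 0.0524, edgeR adjusted p = 0.55). MT-RNR1 was at 0.23 (SE 0.0516, edgeR adjusted p = 0.55). Against OPG, the other RANKL binder, 0 genes passed in edgeR's test (1031, or 5.94%, at an unadjusted p under 0.05), and DESeq2 called 3, namely TOMM7, MT-ND6 and RPL41. RPL41, a small ribosomal protein, was at 0.26 (SE 0.0442, edgeR adjusted p = 0.0521), and TOMM7, a subunit of the mitochondrial import pore, at 0.24 (SE 0.0483, edgeR adjusted p = 0.21). PAK4 was at -0.27 (SE 0.0715) and RABAC1 at -0.55 (SE 0.151) in denosumab over OPG, and neither passed. These counts do not show that the agents act alike, since the median SE of a gene above 5 CPM was 0.0865 against RANKL and 0.0868 against OPG.

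TCam-2 libraries share no sample with the NTera2 libraries. There, 2 of 16621 genes passed (0.012%), and both were mitochondrial messengers that rose (1534 genes, or 9.23%, had an unadjusted p under 0.05). MT-ND4L was at 0.45 (SE 0.0732, edgeR adjusted p = 0.0431) and MT-ND5 at 0.34 (SE 0.057, edgeR adjusted p = 0.0431). Both also passed in DESeq2 and with no filter on low counts, MT-ND5 passed after the GC and length correction, and neither passed without the block by passage, with other size factors, or when any passage was left out. The fit of 16 TCam-2 libraries includes 2 RANKL libraries of low RNA integrity numbers, 6.1 and 3.7. Without them, an alternative chosen after seeing the data, neither passed, with MT-ND4L at 0.46 and MT-ND5 at 0.34 (edgeR adjusted p = 0.0825 for each). The 13 messengers made up 2.32%, 2.05%, 2.31% and 2.45% of counts in TCam-2 denosumab libraries, against 2.22%, 1.74%, 1.89% and 2.03% in TCam-2 vehicle libraries. Each denosumab library was above its own pair, and the groups overlapped. Of the 13 messengers 12 were positive, with a median of 0.17 against 0.25 in NTera2. Of the 10 genes that rose in NTera2, 9 were positive in TCam-2, and of the 20 that fell, 17 were negative, with medians of 0.17 and -0.10. Over all genes tested in TCam-2 the median was -0.0026, and the shares positive and negative were not counted. By GC content, the TCam-2 median was 0.14 in the lowest decile. It was -0.068, -0.077 and -0.069 in deciles 8, 9 and 10, which held 3, 3 and 12 of the genes that fell in NTera2. Whether the signs in TCam-2 go beyond this GC trend was not tested.

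Only MT-RNR1 passed the test of the difference between the lines itself, 1 of 19216 genes (0.0052%, with 1275 or 6.64% at an unadjusted p under 0.05). Its log2 fold change was 0.31 (SE 0.0519) in NTera2 and -0.27 (SE 0.0814) in TCam-2, and the difference in the joint fit of both lines was 0.54 (SE 0.0962, edgeR adjusted p = 0.0423). It averaged 101 ± 11.8 CPM with denosumab and 122 ± 18.8 CPM with vehicle in TCam-2 (SD, n = 4 each). The difference was 0.53 (edgeR adjusted p = 0.0495) without the 2 libraries of low RNA integrity. MT-RNR1 also passed in DESeq2, with RLE size factors and with no filter on low counts. The call ended without the block, with any passage left out and after the GC and length correction, when the adjusted p was 0.077. MT-RNR2, the other mitochondrial ribosomal RNA, did not share this difference. It was at 0.30 (SE 0.0492) in NTera2 and 0.21 (SE 0.0581) in TCam-2, and the difference was 0.051 (SE 0.0812, edgeR adjusted p = 0.930). For the other genes, such as DHCR7 at -0.21 in NTera2 and 0.079 in TCam-2, the test of the difference did not pass (adjusted p = 0.719 for DHCR7).

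**Figure D5:**
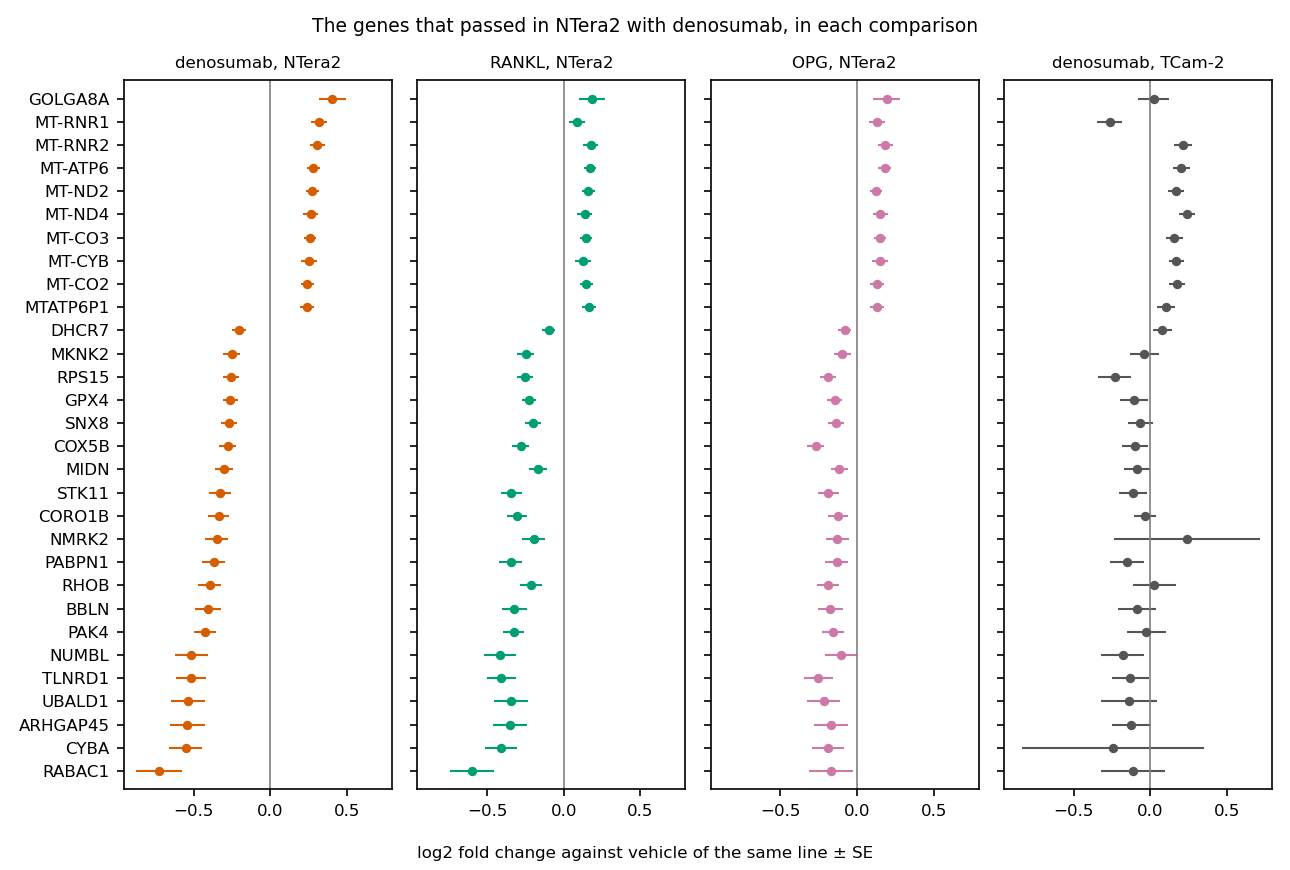
Log2 fold change ± SE against vehicle of the same line (x axis) for the 30 genes that passed in NTera2 with denosumab (y axis), for denosumab, RANKL and OPG in NTera2 and for denosumab in TCam-2. The 3 NTera2 panels share their vehicle libraries, and MT-RNR1 lies above 0 in NTera2 with denosumab and below 0 in TCam-2.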

How the data were processed

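Polyadenylated RNA of 32 cultures was sequenced, of which the 4 denosumab and 4 vehicle libraries of NTera2 cells are compared here. Per the labels' protocols, libraries were stranded and read as paired 52-base reads. Per the submitters' processing notes, bcl2fastq 2.20.0, STAR 2.7.9a and featureCounts 1.6.2 were used with GRCh38/hg38. The deposited values are raw read counts per gene, whole numbers that the authors did not normalize. The deposited table also gives gene length, start and end, which are other values and were used only for positions. The annotation release and strand setting are not given in the sources used here, so overlapping, antisense and near-identical genes are uncertain. All 32 columns matched a library and 0 columns of per-sample values were left unused, and 61369 of 61541 genes matched the gene name table by identifier.

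Tests were run with edgeR 4.0.16 under R 4.3.3 (robust quasi-likelihood F test, TMM factors, filterByExpr at a minimum count of 10) over the 16 libraries of a line, or all 32 for the difference between lines, with the replicate number as a block and Benjamini-Hochberg adjustment over all genes tested. A gene passed at an adjusted p under 0.05. The SE is the log2 fold change divided by the square root of F. Same-numbered libraries share a passage per the labels, which is the basis of the pairing, and their deviations from the group means correlated at 0.22, 0.42, 0.010 and 0.18 in the 4 pairs. Differently numbered libraries ranged from -0.33 (denosumab library 2 with vehicle library 1) to 0.20 (denosumab library 1 with vehicle library 3). Denosumab library 3 correlated at 0.15 with vehicle library 4, above its own pair. Replicates came from independent experiments in 1 line, and replicate libraries were further apart than sampling of reads alone gives (chi-square per degree of freedom 2.81 to 9.00). DESeq2 1.42.0 was an alternative. GC content and length were those of 1 GENCODE v29 transcript per gene, held by 98.4% of tested genes, and were corrected per library with natural splines of 5 degrees of freedom fitted on genes above 5 CPM. On simulated counts for denosumab against vehicle (17041 genes), the test recovered 22 of 50 genes changed 1.2-fold (44%) and 42 of 50 changed 1.5-fold (84%). It recovered 49 of 50 at 2-fold (98%) and 50 of 50 at 3-fold (100%), with 17 false calls among 16841 unchanged genes. Changed genes were at 5 CPM or more. Counts were drawn independently around 1 mean per gene, without a passage effect or a GC trend. Recovery and false calls in the real libraries may therefore differ.

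The comparison, the 40 gene lists and the tests were chosen with earlier results of these data known. Named genes were the 12 largest changes in each direction among genes that passed, at 5 CPM or more and with 1 sign in all pairs. They were filled up with the next smallest p, here MT-CO1 and MT-ND5, which did not pass. Also named were the 8 smallest p in each direction and the members of each list that passed. Where no member passed, names were taken from those with the smallest p, and not every one of these is given above. TNFSF11, TNFRSF11A and TNFRSF11B, the cell type markers and genes with the smallest p in the other comparisons were named as well. Lists are described by counts and medians, without a set test. Further list members that did not pass were named after their values were seen.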

Additional observations from a re-analysis of the deposited data

Results flagged for a closer look

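Among 292 groups of 4 libraries of the named genes, 13 held a library far from the other 3. Chance gives about 1 in 20, so the count is no higher than chance gives. Denosumab library 1 was that library for RABAC1 at 7.02 CPM (others 12.7 to 12.9), ARHGAP45 at 17.5 CPM (27.9 to 29.8), MT-CYB at 2441 CPM (2232 to 2264), UHRF1 at 37.0 CPM (53.3 to 56.4), TUBB3 at 14.95 CPM (19.3 to 20.2) and H3C2 at 0 CPM (0.524 to 0.564). This library also had the fewest genes with counts. Denosumab library 2 was that library for PFKP at 70.8 CPM (60.7 to 62.1) and TNFRSF8 at 75.1 CPM (64.1 to 65.8). Among vehicle libraries, MT-CO2 was at 5576 CPM in library 2 (6058 to 6131), TRAF3 at 26.7 CPM in library 3 (24.6 to 24.9), TFAP2A at 1.54 CPM in library 4 (0.509 to 0.667), HLA-B at 36.4 CPM in library 1 (44.0 to 45.2) and CD74 at 2.10 CPM in library 1 (0.927 to 1.07).

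MT-RNR1 was listed because the effect of denosumab differed between the lines, by 0.54 on the log2 scale (NTera2 minus TCam-2), in the test of the difference itself.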

How the results depend on the processing

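The count of 30 genes was 30 with RLE size factors, 28 with upper-quartile factors, 30 with library sizes that leave out mitochondrial genes and 32 with a stricter filter. It was 310 in DESeq2 (29 shared), 553 with no filter on low counts, 215 with only the 8 libraries of the comparison, 14 after the GC and length correction, and 0 without the replicate block, which pairs the libraries by passage. With that correction and no block, chosen after seeing the data, it was 0 (smallest adjusted p 0.0504). Leaving out a passage or a library gave 0 to 957. All 30 genes kept their sign in every one of these settings, and MT-ND2, MT-ATP6 and MT-CO3 passed in 18 of 22. The settings refit the libraries from which the 30 were chosen, with all 4 pairs on 1 side of 0. Kept signs and calls are therefore no separate support. Against RANKL the count of 0 became 19 with no filter, and stayed 0 without the block and with any passage left out. Against OPG it was 3 in DESeq2, 123 with no filter, 0 without the block, and 0 to 1 with a passage left out (MT-ND6 without pair 2). In TCam-2 the count of 2 was 0 without the block, 4 in DESeq2 (MT-ND5 and MT-ND4L among them), 112 with no filter, 0 with RLE factors, 0 without libraries of an RNA integrity number under 7 (chosen after seeing the data), 0 to 0 with a passage left out, and 12 after the GC and length correction, chosen after seeing the data. For the difference between lines the count of 1 was 0 without the block, 2 in DESeq2, 96 with no filter, 0 to 0 with a passage left out, and 0 after the correction, also chosen after seeing the data. The cause of these shifts was not tested. The mitochondrial share differed by 0.577 points with and without the pairing (exact permutation p = 0.12 and 0.0286), and by 0.536 to 0.657 with a pair left out. Over the named genes, 2922 values stayed on the same side of the threshold, 235 passed newly and 360 no longer passed, and 40 of 880 list medians moved beyond their spread over pairs. Low counts limit what can be seen: the SE was 0.307 for TNFSF11 and 0.320 for TNFRSF11B.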
